A study of Homo sapiens with 12 samples.

Results

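The genes of the interferon response and of MHC class I presentation were followed in sorafenib-resistant and parental liver cancer cells. The 44 genes are a list of symbols, drawn up with earlier results of these data known although the rule itself uses no measured value, and each had 1 row among the 27249 Ensembl genes of the tables (98711 genes in all). RNA was read from Huh7 and from HepG2, established human lines grown from liver tumours, and all 4 groups of 3 samples were labelled WT for genotype. Resistant cells had survived a first dose of 10 μmol sorafenib, a multikinase inhibitor, and had then been taken through rising doses for 8 months, while parental cells were untreated. The sources used here do not state whether the drug was present at harvest or whether a resistant line is a clone. They also do not state that the 3 samples of a group were separate cultures, so the p-values below measure only the spread between these samples, which may be technical.

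Interferons bind receptors on the cell surface, and the Janus kinases at these receptors activate STAT proteins. Type I and III interferons lead to a complex of STAT proteins with IRF9, which binds interferon-stimulated response elements (ISRE) built from repeats of GAAA. The induced genes include sensors of viral RNA, enzymes that degrade or modify RNA and proteins, and membrane proteins that block virus entry. The same signals raise MHC class I, whose heavy chain pairs with B2M and carries peptides that TAP1 and TAP2 pump into the endoplasmic reticulum, so that T cells and natural killer cells can inspect the liver cell.

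Values are FPKM, reads per kilobase of exon scaled to the depth of the library, and a difference is given as a log2 fold change on the log2(FPKM + 1) scale with its standard error (SE). A gene was tested with limma where 3 or more of the 6 samples compared reached 1 FPKM. Genes were called differentially expressed with an adjusted p under 0.05 and a log2 fold change beyond 1, and were counted separately with an adjusted p under 0.05 alone. This filter was passed by 21 of the 44 members in Huh7 and by 25 in HepG2, by 19 in both lines and by 27 in either line. The reads behind a sample numbered 12290124 to 19286055, and Pearson's r between replicates was 0.9807 to 0.9909. All 8 liver marker genes reached 1 FPKM in at least 1 sample, with a summed level of 3795 to 9667 FPKM. That sum was 5152 to 5287 in resistant against 7796 to 9667 in parental Huh7 samples, and 3795 to 4068 against 4816 to 5957 in HepG2. Within it, AFP was at 2115 to 2415 FPKM in resistant and 4623 to 6306 in parental Huh7 samples. By the adjusted p alone, 2 of the 8 markers were higher in resistant Huh7 cells, HNF4A and APOA1, and 3 lower (32.7% and 37.4% of all genes were). In resistant HepG2 cells, 0 were higher and 3 lower (11.6% and 8.43% of all genes were). Marker values with the trend on GC content described below taken off are not given. The 7 leukocyte markers found of 8 listed summed to 5.03 to 6.23 FPKM in resistant and 2.88 to 4.88 in parental Huh7 samples, and to 8.39 to 10.2 in HepG2. No leukocyte marker was at 0 in every sample, 5 reached 1 FPKM in at least 1 sample, and the pan-leukocyte gene PTPRC had a mean of 0.990 FPKM. The 4 fibroblast markers summed to 2.24 to 2.58 FPKM in resistant and 0.801 to 0.900 in parental Huh7 samples, and the 3 endothelial markers to 2.11 to 2.20 against 1.35 to 1.52. In HepG2 the fibroblast sum was 0.0191 to 0.0906 FPKM, and the endothelial sum was 1.17 to 1.60 in resistant and 2.58 to 3.66 in parental samples. The part of these sums in the results was not tested.

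In resistant Huh7 cells, 4 of the 21 members tested were differentially expressed and higher (19.0%, against 8.59% of all 12554 genes tested), and 1 was lower (4.76%, against 14.0%). The 4 were OAS3, OAS1, MX1 and IFITM3, and the lower one was DDX58. Of these, OAS1 and MX1 reached the filter only through the resistant samples where they are high, so that they had to differ to be counted. With the trend on GC content described below taken off, 4 members were again called higher, with IFIT5 in place of IFITM3, and 0 lower, and over all genes 707 were called higher and 777 lower in place of 1079 and 1759. With the adjusted p alone, 9 members were higher (42.9%, against 32.7% of all genes) and 4 were lower (19.0%, against 37.4%). The median log2 fold change of the members tested was 0.29, and that of all genes tested was -0.04. In resistant HepG2 cells, 0 of 25 members were differentially expressed and higher (3.29% of all 11762 genes were) and 2 were lower (8.00%, against 2.98%), IFIT5 and HLA-E. At an unadjusted p under 0.05, limma had 6 HepG2 members higher, and limma-voom on the reads called 1 higher (685 of all 11760 genes were). There, 3 of the 25 members were higher by the adjusted p alone (11.6% of all genes were) and 2 were lower (8.00%, against 8.43%), with a median of 0.07 beside 0.12 for all genes. In cultures such as these, more cells with a transcript and more transcript per cell cannot be told apart.

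**Figure D1:**
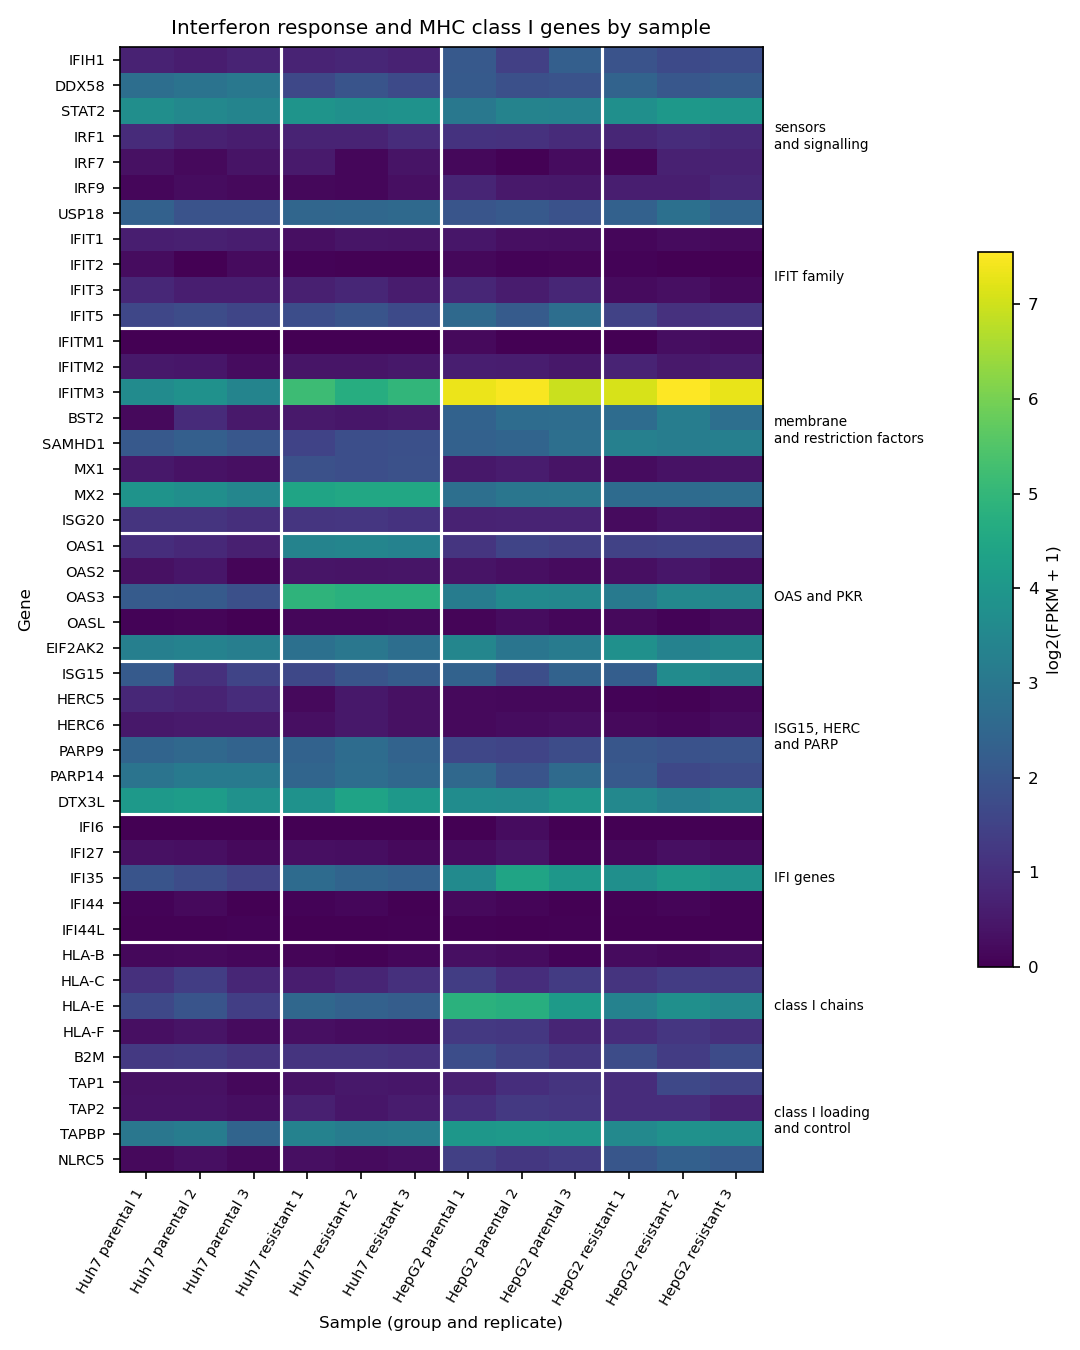
Level of the 44 members in the 12 samples as log2(FPKM + 1), with genes in rows grouped by role and samples in columns grouped by line and condition. IFITM3 is the brightest row, with 123 to 187 FPKM in HepG2, and 16 members stay below 1 FPKM in all 12 samples.

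Changes in Huh7 went with the base composition of the genes. Across the genes tested, the log2 fold change in Huh7 rose with the GC content of the longest transcript of a gene (Spearman correlation 0.617 across genes, which are not independent replicates and share the same 6 libraries). In HepG2 the same correlation was 0.039, and for parental HepG2 against parental Huh7 cells it was 0.307. The members tested in Huh7 had a median GC content of 50.2%, and all genes tested had one of 46.7%. For this reason the Huh7 value of a member is given with its value after the trend on GC content was taken off wherever that moved it across a threshold or by more than 1.5 times. The plot of the Huh7 changes with and without this trend shows both values for every member tested. The trend was taken off only for genes that passed the filter. The Huh7 changes of IFIT1, HERC5 and TAP2 given with no filter therefore have no such value.

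Sequence from the gene starts is shown for 7 members whose levels or changes differed between groups or lines, and for B2M. This sets the ISRE letters beside the measured changes. B2M passed in no comparison of the main limma fits, but did in Huh7 and between the parental lines with the trend on GC content taken off. RefSeq promoter windows (build GRCh38.p14, 250 bases before to 50 after a start) were found for 35 of the 44 members, DDX58 under its newer symbol RIGI. IFIT2, MX2, OAS2, OASL, IRF7, IFITM2, USP18, HLA-E and NLRC5 had no window. The ISRE core GAAANNGAA was searched on both strands, as were the looser core AANNGAAA, whose matches mostly overlap those of the first in the stretches shown, and the gamma-activated site TTCNNNGAA, which reads the same on both strands. GAAANNGAA was in a window of 25 of the 35 members (71.4%), against 9.86% of 27305 genes with a window. AANNGAAA was in 31 of them (88.6%, against 26.7%) and TTCNNNGAA in 10 (28.6%, against 9.38%). The members were listed as genes of the interferon response and MHC class I, so higher shares follow from the choice of genes. They are not a result about these cells. The stretches below run 5′ to 3′ on the strand of the gene, with the bases covered by GAAANNGAA or AANNGAAA in capitals. They are the last 60 bases before the start for OAS1 (chr12:112906902-112906961, plus strand), OAS3 (chr12:112938414-112938473, plus), IFITM3 (chr11:320861-320920, minus), IFIT5 (chr10:89414508-89414567, plus) and TAPBP (chr6:33314079-33314138, minus). For MX1 the first 30 transcribed bases of 1 of its starts are shown (chr21:41420558-41420587, plus), for DDX58 30 bases farther upstream (chr9:32526322-32526351, minus) and for B2M likewise (chr15:44711367-44711396, plus).
OAS1: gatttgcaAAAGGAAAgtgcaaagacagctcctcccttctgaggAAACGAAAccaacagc
OAS3: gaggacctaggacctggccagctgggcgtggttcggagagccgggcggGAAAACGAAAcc
MX1: cgagcagAAATGAAACCGAAACTGAAttgt
IFITM3: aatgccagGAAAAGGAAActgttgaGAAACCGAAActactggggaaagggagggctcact
DDX58: cgctagttgcacTTTCGATTTTCCCTTtag
IFIT5: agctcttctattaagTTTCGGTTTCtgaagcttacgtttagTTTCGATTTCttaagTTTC
TAPBP: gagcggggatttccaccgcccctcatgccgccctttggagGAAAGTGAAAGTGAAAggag
B2M: ctctaaGAAAAGGAAACTGAAAacgggaaa
In these windows OAS1 and DDX58 held AANNGAAA but not GAAANNGAA, and the other 6 held both. A match is a description of the letters and not a bound site.

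The oligoadenylate synthetases make a second messenger from double-stranded RNA that activates the ribonuclease RNase L. OAS3 was at 28.9, 27.0 and 26.7 FPKM in the 3 resistant Huh7 samples and at 3.48, 3.43 and 2.62 in the parental samples. OAS1 was at 9.29, 9.83 and 9.12 FPKM in resistant and at 0.969, 0.828 and 0.575 in parental Huh7 samples. For both genes, every resistant sample was several times above every parental sample. The mean of OAS1 was 11.9 times higher in resistant Huh7 cells (log2 fold change 2.55, SE 0.12, adjusted p = 4.45e-06), and that of OAS3 was 8.67 times higher (2.78, SE 0.12, adjusted p = 4.19e-06). By the size of the log2 fold change they ranked 79 and 48 among the 12554 genes tested. These changes were 2.45 and 2.32 once the trend on GC content was taken off.

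In HepG2 the levels of these synthetases overlapped between the groups. OAS3 was at 7.67, 10.4 and 10.1 FPKM in resistant and at 8.09, 10.96 and 10.3 in parental samples (log2 fold change -0.05, SE 0.17, adjusted p = 0.845). OAS1 was at 1.80, 1.95 and 1.82 FPKM against 1.25, 1.92 and 1.68 (0.13, SE 0.15, adjusted p = 0.558). The change differed between the lines for OAS1 (interaction -2.41, SE 0.18, adjusted p = 1.69e-06) and for OAS3 (-2.83, SE 0.20, adjusted p = 1.49e-06). OAS1, OAS3 and OAS2 lie next to each other on chromosome 12 (OAS1 from 112906777 to 112933222, OAS3 from 112938352 to 112973249 and OAS2 from 112978395 to 113011723 on GRCh38). OAS2, the last of this run, stayed at 0.0790 to 0.370 FPKM in all 12 samples, and the related OASL at 0.0176 to 0.185. EIF2AK2, the kinase PKR that stops translation when it meets double-stranded RNA, was at 5.84, 6.94 and 5.67 FPKM in resistant and 8.54, 9.14 and 8.37 in parental Huh7 samples. Every resistant sample was below every parental sample (log2 fold change -0.44, SE 0.11, adjusted p = 0.00672), and with the trend on GC content taken off the sign turned (0.30, adjusted p = 0.0173).

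**Figure D2:**
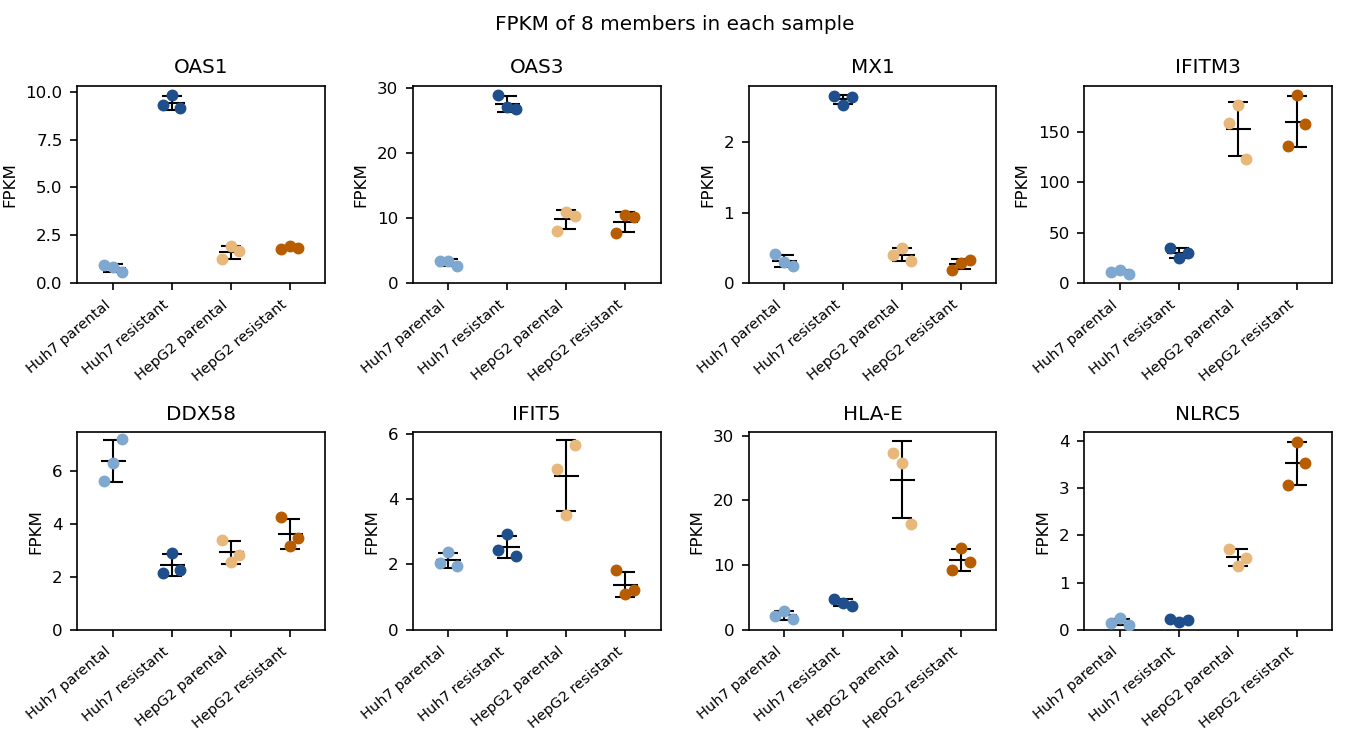
FPKM of 8 members in each sample, with 1 point per sample, the mean as a horizontal mark and bars of 1 SD (n = 3 per group), and axes that start at 0. OAS1, OAS3 and MX1 stand apart in resistant Huh7 cells, and NLRC5 in resistant HepG2 cells.

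Among membrane and restriction factors, MX1, a dynamin-like GTPase that traps viral nucleocapsids, was also higher in resistant Huh7 cells. It was at 2.65, 2.53 and 2.64 FPKM in resistant and at 0.414, 0.296 and 0.244 in parental Huh7 samples, with no overlap (8.20 times, log2 fold change 1.45, SE 0.10, adjusted p = 2.17e-05). In HepG2, MX1 was below the filter in both groups, at 0.192 to 0.501 FPKM. MX2, its neighbour on chromosome 21 and a barrier to the nuclear entry of retroviruses, was at 20.3, 21.99 and 21.9 FPKM in resistant and at 13.7, 12.3 and 10.2 in parental Huh7 samples. The groups did not overlap (log2 fold change 0.79, SE 0.12, adjusted p = 0.000591). In HepG2, MX2 was at 5.26, 5.23 and 5.52 against 5.70, 6.87 and 6.90 FPKM, with every resistant sample below every parental one (-0.24, SE 0.14, adjusted p = 0.243, and -0.29 with an adjusted p of 0.0423 once the trend on GC content was taken off), and the lines differed (interaction -1.03, SE 0.17, adjusted p = 0.000357). For the Huh7 changes of OAS1, OAS3, MX1 and MX2, the direction and the adjusted p under 0.05 held in every alternative and with each sample left out.

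IFITM3 sits in endosomal membranes, where it hinders the fusion of incoming viruses. It was at 35.4, 25.2 and 30.2 FPKM in resistant and at 11.6, 13.1 and 9.55 in parental Huh7 samples, which do not overlap (2.65 times, log2 fold change 1.33, SE 0.16, adjusted p = 0.000149). Its change was 0.80 with the trend on GC content taken off (adjusted p = 0.000943), which no longer reaches a log2 fold change of 1. In HepG2 it was at 136, 187 and 158 FPKM in resistant and 158, 176 and 123 in parental samples, and the groups overlap (0.07, SE 0.19, adjusted p = 0.81). The lines differed in this change (interaction -1.26, SE 0.25, adjusted p = 0.00123). The paralogues IFITM1 and IFITM2, whose annotated spans overlap, stayed at 0 to 0.203 and at 0.201 to 0.689 FPKM. Reads of such near-identical genes may have been split or dropped, since the handling of reads with several matches is not given in the sources used here.

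SAMHD1, which breaks down the nucleotides that viruses need for DNA synthesis, moved in opposite directions. It was at 8.70, 8.11 and 8.65 FPKM in resistant and 4.08, 4.41 and 5.81 in parental HepG2 samples (log2 fold change 0.73, SE 0.15, adjusted p = 0.0143). In Huh7 it was at 1.90, 2.54 and 2.56 against 3.35, 3.89 and 3.13 FPKM (-0.42, SE 0.13, adjusted p = 0.017). In both lines the 2 groups stayed apart, and the lines differed (interaction 1.15, SE 0.19, adjusted p = 0.000378). The HepG2 call was lost without HepG2 resistant replicate 3 (adjusted p = 0.0715) or parental replicate 1 (0.0506). The Huh7 call was lost with the trend on GC content taken off (-0.18, adjusted p = 0.145) and without Huh7 resistant replicate 1 (0.0695) or parental replicate 2 (0.071). BST2 (tetherin), which holds budding viruses at the cell surface, was at 5.33 to 8.26 FPKM in resistant and 4.22 to 5.45 in parental HepG2 samples (0.30, SE 0.18, adjusted p = 0.279). In Huh7, BST2 stayed at 0.149 to 0.902 FPKM. ISG20, an exonuclease, was at 1.04 to 1.27 FPKM in Huh7, with overlapping groups (0.05, SE 0.10, adjusted p = 0.677, and -0.35 with an adjusted p of 0.0117 once the trend on GC content was taken off), and was below the filter in HepG2. There it was at 0.168 to 0.290 FPKM in resistant and 0.652 to 0.685 in parental samples, with no overlap, and with no filter it was lower (-0.44, adjusted p = 0.0228).

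Of the 3 sensors and signalling genes tested in Huh7, 2 were higher and 1 was lower (32.7% and 37.4% of all genes were). DDX58, which encodes the RNA sensor RIG-I, was at 2.13, 2.92 and 2.27 FPKM in resistant and at 5.62, 6.30 and 7.21 in parental Huh7 samples. Every resistant sample was below every parental sample, with a mean 2.61 times lower (log2 fold change -1.10, SE 0.13, adjusted p = 0.00017). Taking off the trend on GC content gave -0.50 (adjusted p = 0.000977), short of a log2 fold change of 1. In HepG2, DDX58 was at 4.27, 3.15 and 3.47 against 3.41, 2.56 and 2.83 FPKM (0.23, SE 0.16, adjusted p = 0.319), and the lines differed (interaction 1.34, SE 0.20, adjusted p = 0.000193). IFIH1, the sensor MDA5 of long double-stranded RNA, was at 0.524 to 0.767 FPKM in Huh7 and at 1.69 to 3.89 in HepG2, where its groups overlap (-0.14, SE 0.23, adjusted p = 0.682).

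STAT2, the partner of IRF9, was at 12.6, 15.2 and 14.2 FPKM in resistant and 7.19, 9.30 and 9.11 in parental HepG2 samples, with no overlap (log2 fold change 0.66, SE 0.15, adjusted p = 0.0192). This call was lost without HepG2 resistant replicate 2 (adjusted p = 0.0655) or 3 (0.0939), or without parental replicate 1 (0.0597). In Huh7 STAT2 was at 14.1, 12.7 and 13.4 against 12.4, 10.5 and 9.61 FPKM (0.29, SE 0.12, adjusted p = 0.0491). That Huh7 call was lost with the trend on GC content taken off (0.06, adjusted p = 0.511), and leaving out 1 sample ended it in 5 of 6 cases, where the adjusted p was 0.0546 to 0.138. USP18, which removes ISG15 from proteins and restrains the interferon receptor, was at 4.65, 4.77 and 5.02 FPKM in resistant and 4.08, 2.79 and 2.82 in parental Huh7 samples (0.47, SE 0.14, adjusted p = 0.0139). The groups did not overlap, and the change was 0.15 (adjusted p = 0.206) with the trend on GC content taken off and lost its call without Huh7 parental replicate 2 (adjusted p = 0.0567). In HepG2, USP18 was at 4.13, 5.88 and 4.45 against 3.00, 3.32 and 2.78 FPKM (0.52, SE 0.16, adjusted p = 0.0526), with no overlap and with a call under 6 of 14 alternatives. Of the transcription factors, IRF9 stayed at 0.0957 to 0.751 FPKM, IRF7 at 0.0310 to 0.641 and IRF1 at 0.516 to 1.15, so that none of the 3 was tested.

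The IFIT proteins bind viral RNA ends. IFIT5, the member that passed the filter, was at 1.82, 1.10 and 1.22 FPKM in resistant and at 4.93, 3.53 and 5.67 in parental HepG2 samples. Every resistant sample was below every parental sample, with a mean 3.41 times lower (log2 fold change -1.26, SE 0.19, adjusted p = 0.00423). In Huh7 it was at 2.43, 2.92 and 2.27 against 2.04, 2.38 and 1.96 FPKM, which overlap (0.18, SE 0.12, adjusted p = 0.21). With the trend on GC content taken off, the Huh7 change was 1.00 (adjusted p = 0.000289). The lines differed in this change (interaction -1.43, SE 0.23, adjusted p = 0.000292). The other IFIT genes lie in the same cluster on chromosome 10 and were below the filter in both lines. IFIT3 was at 0.110 to 0.249 FPKM in resistant and 0.493 to 0.750 in parental HepG2 samples, IFIT1 at 0.0896 to 0.166 against 0.207 to 0.380, and IFIT2 at 0.0133 to 0.0432 against 0.0595 to 0.130. With no filter, IFIT3 was lower in resistant HepG2 cells (-0.50, adjusted p = 0.0326), and IFIT1 was lower in resistant Huh7 cells (-0.25, adjusted p = 0.0158). These 3 genes share their span with LIPA on the other strand (mean 22.7 FPKM), and as the library kit named does not mark strand, reads of the 2 strands cannot be told apart.

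ISG15 is a ubiquitin-like protein that is attached to newly made proteins. It was at 3.76, 11.6 and 9.62 FPKM in resistant and at 4.20, 2.505 and 4.18 in parental HepG2 samples. Of the resistant samples, 2 were above every parental sample and 1 was among them (log2 fold change 0.92, SE 0.35, adjusted p = 0.0982). Without HepG2 resistant replicate 1, the change was 1.35 (adjusted p = 0.00603). In Huh7, ISG15 was at 2.13, 2.97 and 3.63 against 3.43, 1.07 and 1.91 FPKM, with overlapping groups (0.37, SE 0.27, adjusted p = 0.241), and the sign turned with the trend on GC content taken off (-0.13, adjusted p = 0.658). HERC5, the ligase that attaches ISG15, was at 0.133 to 0.403 FPKM in resistant and 0.698 to 0.961 in parental Huh7 samples (-0.52 with no filter, adjusted p = 0.00915), and its relative HERC6 at 0.0944 to 0.451 in all samples.

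DTX3L and PARP9 form a ubiquitin ligase and ADP-ribosyltransferase complex and are read from neighbouring starts on opposite strands. DTX3L was at 13.4 to 19.7 FPKM in resistant and 13.0 to 17.2 in parental Huh7 samples (0.07, SE 0.16, adjusted p = 0.721). PARP9 was at 4.13 to 5.32 against 4.24 to 4.83 FPKM (0.02, SE 0.12, adjusted p = 0.894). Once the trend on GC content was taken off, PARP9 was higher in resistant Huh7 cells (0.35, adjusted p = 0.00514) and DTX3L was at 0.32 (adjusted p = 0.0556). Neither change passed the test in HepG2 (DTX3L -0.33, SE 0.15, adjusted p = 0.143, but -0.41 with an adjusted p of 0.0146 once that trend was taken off, and PARP9 0.32, SE 0.14, adjusted p = 0.128). PARP14, another ADP-ribosyltransferase, was at 4.46, 5.53 and 4.76 FPKM in resistant and 6.55, 7.51 and 7.56 in parental Huh7 samples (-0.47, SE 0.12, adjusted p = 0.006), a change of -0.05 (adjusted p = 0.5) with the trend on GC content taken off. In HepG2, it was at 2.13 to 3.31 against 2.89 to 5.12 FPKM (-0.54, SE 0.22, adjusted p = 0.108), a change that passed with the replicate block (adjusted p = 0.0452) and with the trend on GC content taken off (-0.63, adjusted p = 0.0168).

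Among the IFI genes, which interferon induces in many tissues, IFI35 alone passed the filter. It was at 5.24, 4.42 and 3.999 FPKM in resistant and 2.91, 2.41 and 1.79 in parental Huh7 samples, with no overlap (log2 fold change 0.73, SE 0.15, adjusted p = 0.0027). Taking off the trend on GC content gave 0.18 (adjusted p = 0.184). In HepG2 it was at 12.6 to 15.9 against 11.2 to 20.4 FPKM (-0.11, SE 0.21, adjusted p = 0.748). IFI27 stayed at 0.0767 to 0.314 FPKM, IFI44 at 0 to 0.150 and IFI44L at 0.00515 to 0.0544. IFI6 was listed at 0 in 11 samples and at 0.188 FPKM in 1 parental HepG2 sample.

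The MHC class I chains were low for most members. B2M, the light chain shared by all class I molecules, was at 1.10 to 2.45 FPKM in the 12 samples, which rests on 120 to 245 reads. HLA-C was at 0.526 to 1.61 FPKM (25 to 71 reads) and HLA-B at 0.0340 to 0.250 FPKM (2 to 11 reads). The annotated span of HLA-B overlaps that of HLA-C in part on the same strand, and the class I heavy chains are near-identical in places, so both values are uncertain. The level of B2M, a transcript that most cells make in quantity, is uncertain too, since the aligner, the counter and the handling of reads with several matches are not given in the sources used here. B2M did not pass the test in Huh7 (log2 fold change -0.13, SE 0.10, adjusted p = 0.283) or in HepG2 (0.11, SE 0.19, adjusted p = 0.711), and neither did HLA-C (-0.27, SE 0.17, adjusted p = 0.193, and 0.04, SE 0.16, adjusted p = 0.865). With the trend on GC content taken off, B2M was higher in resistant Huh7 cells (0.45, adjusted p = 0.00962) and HLA-C lower (-0.78, adjusted p = 0.00801).

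HLA-E, a non-classical chain that presents leader peptides to natural killer cells, had the highest level of the class I chains and fell in resistant HepG2 cells. It was at 9.21, 12.6 and 10.5 FPKM in resistant and at 27.4, 25.7 and 16.4 in parental HepG2 samples. All resistant samples were below all parental samples, with a mean 2.15 times lower (log2 fold change -1.01, SE 0.21, adjusted p = 0.0144). The adjusted p was 0.0537 without HepG2 resistant replicate 3 and 0.0543 without parental replicate 1. In Huh7, HLA-E was at 4.78, 4.11 and 3.70 against 2.08, 2.89 and 1.64 FPKM, also with no overlap but in the other direction (0.71, SE 0.16, adjusted p = 0.00404). The Huh7 change was 0.24 (adjusted p = 0.201) with the trend on GC content taken off. The lines differed (interaction -1.72, SE 0.28, adjusted p = 0.000346). HLA-F, another non-classical chain, was at 0.732 to 1.40 FPKM in HepG2, with overlapping groups (-0.04, SE 0.18, adjusted p = 0.88), and at 0.158 to 0.328 in Huh7.

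Among the genes for peptide loading and control, NLRC5 rose in resistant HepG2 cells. NLRC5, the transactivator of class I genes, was at 3.06, 3.97 and 3.54 FPKM in resistant and at 1.72, 1.36 and 1.52 in parental HepG2 samples. The groups did not overlap (2.30 times, log2 fold change 0.83, SE 0.15, adjusted p = 0.00736). It stayed at 0.110 to 0.240 FPKM in Huh7. Of the 4 class I chains tested in HepG2, 0 passed as higher with limma by the adjusted p alone, where 11.6% of all genes did. At an unadjusted p under 0.05 it was also 0. HLA-E passed as lower (8.43% of all genes did). Whether the level of NLRC5 bears on these chains was not tested. TAP1 was at 0.959, 2.11 and 1.83 FPKM in resistant and 0.586, 0.965 and 1.18 in parental HepG2 samples (0.45, SE 0.21, adjusted p = 0.171). TAP2 was at 0.646 to 0.950 against 1.00 to 1.36 FPKM (-0.26, SE 0.15, adjusted p = 0.247). TAPBP (tapasin), which bridges TAP and the heavy chain, was at 10.7 to 13.1 FPKM in resistant and 14.6 to 15.9 in parental HepG2 samples (-0.30, SE 0.14, adjusted p = 0.145, and -0.41 with an adjusted p of 0.00823 once the trend on GC content was taken off). In Huh7, TAPBP was at 7.98 to 9.29 against 4.36 to 7.93 FPKM, with no overlap (0.40, SE 0.18, adjusted p = 0.0834). This change passed with limma-voom (adjusted p = 0.0375), with all 12 samples in 1 fit (0.0495) and without Huh7 parental replicate 2 (0.0304), and its sign turned with the trend on GC content taken off (-0.14, adjusted p = 0.45). TAP1 and TAP2 were below the filter in Huh7. TAP1 was at 0.285 to 0.399 FPKM in resistant and 0.116 to 0.267 in parental samples, and TAP2 at 0.373 to 0.569 against 0.213 to 0.279 (with no filter, 0.23, adjusted p = 0.0378), with no overlap for either gene. TAPBP differed between the lines (interaction -0.70, SE 0.23, adjusted p = 0.022), a call lost with the trend on GC content taken off (-0.26, adjusted p = 0.222).

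**Figure D3:**
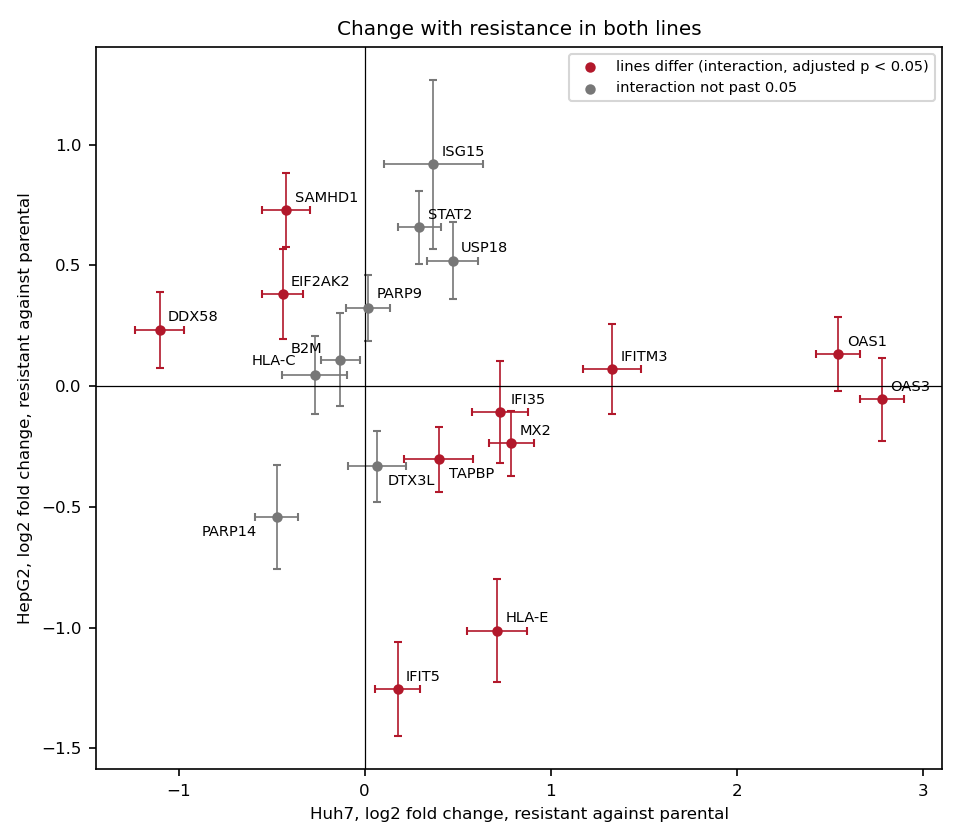
Log2 fold change of the 19 members tested in both lines, Huh7 on the horizontal and HepG2 on the vertical axis, with bars of 1 SE. Red points are the 11 members with an interaction of line and resistance past an adjusted p of 0.05, with OAS1 and OAS3 far to the right near 0 on the HepG2 axis.

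Of the 19 members tested in both lines, 11 changed differently in the 2 lines. The change was more positive in HepG2 for 3 of them (15.8%, against 32.2% of all 10688 genes tested), DDX58, EIF2AK2 and SAMHD1. It was more positive in Huh7 for 8 (42.1%, against 24.1%), IFIT5, IFI35, MX2, OAS1, OAS3, IFITM3, HLA-E and TAPBP. No member was differentially expressed in both lines. In HepG2, 3.29% of all genes tested were called higher and 2.98% lower. How many of all genes were called, or passed the adjusted p, in both lines was not counted. Overlaps between the lines are therefore not read as a result about the members. STAT2, the 1 member with an adjusted p under 0.05 and the same direction in both lines, was higher in both, with the limits given above. Its interaction did not pass (0.36, SE 0.18, adjusted p = 0.102), but passed with the trend on GC content taken off (0.58, adjusted p = 0.00139) and with limma-voom (0.50, adjusted p = 0.0414). SAMHD1 and HLA-E passed in both lines with opposite directions, also with the limits given above for each line.

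**Figure D4:**
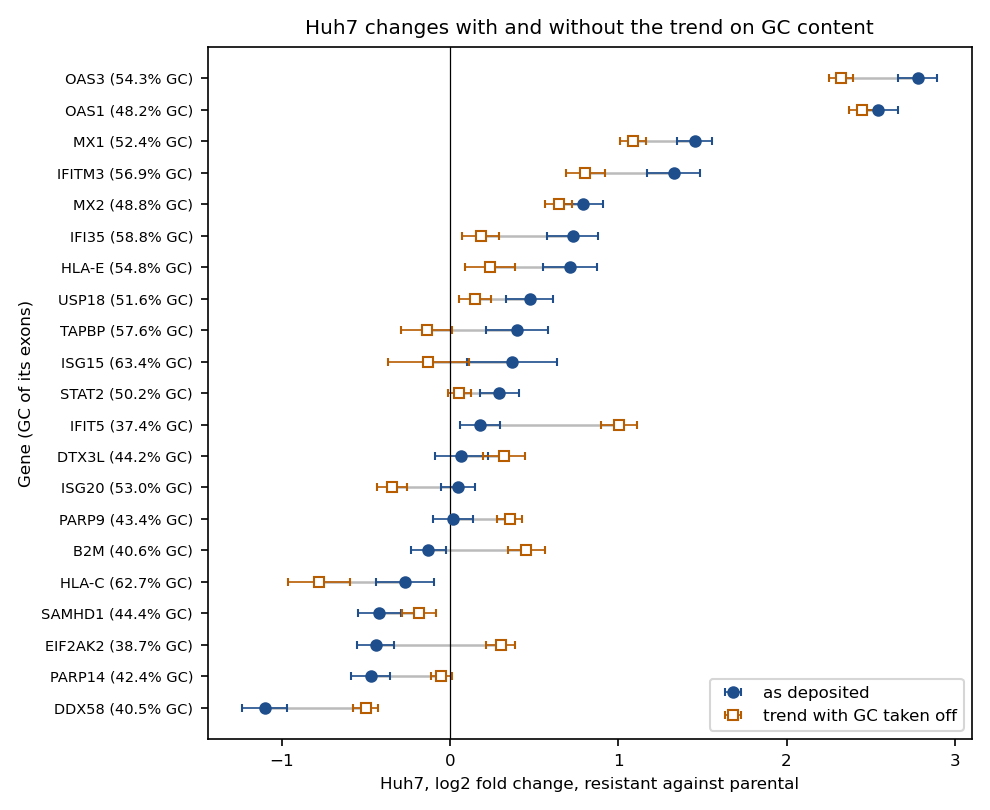
Log2 fold change in Huh7 of the 21 members tested, as deposited (filled circles) and with the trend on GC content taken off (open squares), with bars of 1 SE and the GC content of each gene beside its name. OAS1 (2.55 and 2.45) and MX2 (0.79 and 0.65) moved little, while EIF2AK2 (-0.44 and 0.30) changed sign.

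The parental lines also differed from each other in these genes. Of 24 members tested between the parental cells, 8 were differentially expressed and higher in HepG2 (33.3%, against 12.5% of all 12796 genes) and 0 were lower by limma (19.4% of all genes were), with 5 at an unadjusted p under 0.05 and 2 called by limma-voom (3378 of all 12794 genes were). With the adjusted p alone, 11 were higher in HepG2 (45.8%, against 26.2%) and 5 were higher in Huh7 (20.8%, against 39.0%). Of the 8, BST2, IFIH1 and NLRC5 reached the filter only through the parental HepG2 samples where they are high, and so did OAS1 and TAP2 among the 11, while ISG20 reached it only through Huh7. With the trend on GC content taken off, NLRC5 (0.92) and TAPBP (0.95) no longer reached a log2 difference of 1, IFIT5 did (1.52), DDX58 was at -0.41 and PARP9 at -0.52, and PARP14 lost its call (-0.30, adjusted p = 0.104). The same setting added EIF2AK2 (0.50, adjusted p = 0.0125), SAMHD1 (0.62, adjusted p = 0.00375) and B2M (0.75, adjusted p = 0.00847) as higher in HepG2 and STAT2 (-0.34, adjusted p = 0.0231) as higher in Huh7. By the same limma test, IFITM3 was 13.4 times higher in parental HepG2 than in parental Huh7 cells (152.7 ± 27.0 against 11.4 ± 1.79 FPKM, SD, n = 3, log2 difference 3.62, SE 0.18, adjusted p = 1.11e-06). HLA-E was 10.5 times higher (23.2 ± 5.95 against 2.20 ± 0.634 FPKM, 2.90, SE 0.23, adjusted p = 1.24e-05). IFI35 (2.27), BST2 (2.02), OAS3 (1.37), IFIH1 (1.25), TAPBP (1.15) and NLRC5 (1.12) were the other members called differentially expressed, and IFIT5 (0.85), TAP2 (0.81) and OAS1 (0.55) were higher in HepG2 by the adjusted p alone. The 5 members higher in parental Huh7 cells by the adjusted p alone were DDX58 (-0.91), PARP9 (-0.83), MX2 (-0.79), PARP14 (-0.66) and ISG20 (-0.37). This comparison uses the same parental samples as the comparisons within each line. Side by side, OAS3 was at 3.18 ± 0.484 FPKM in parental Huh7, 9.78 ± 1.504 in parental HepG2, 9.39 ± 1.496 in resistant HepG2 and 27.5 ± 1.23 in resistant Huh7 cells. HLA-E was at 2.20 ± 0.634, 23.2 ± 5.95, 10.8 ± 1.73 and 4.20 ± 0.549 FPKM in the same order.

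Other genes of the pathway were read from lists of interferons, receptors, sensors, further interferon-stimulated genes and antigen presentation. Of the 12 interferon genes listed, 9 had a row, and none of these reached 1 FPKM in any sample. Over the other lists, 56 genes were tested in Huh7, of which 9 were differentially expressed and higher and 6 lower (8.59% and 14.0% of all genes were), and 24 and 13 passed with the adjusted p alone (32.7% and 37.4% of all genes). In HepG2, 58 were tested, of which 2 were differentially expressed and higher and 1 lower (3.29% and 2.98% of all genes were), and 6 and 2 passed with the adjusted p alone (11.6% and 8.43% of all genes). Among those called in Huh7, BATF2, LGALS3BP and MICA reached the filter only through the resistant samples where they are high. CXCL10, DDX60L and JAK2 reached it only through the parental samples, and so did IFNLR1 in HepG2. All of these had to differ to be counted. The Huh7 shares of all genes with the adjusted p alone also apply to the counts by list that follow.

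Of the further interferon-stimulated genes, 10 of the 23 tested in Huh7 were higher and 4 were lower, with a median log2 fold change of 0.20. UBE2L6, the conjugating enzyme that passes ISG15 on, was at 103, 84.8 and 94.4 FPKM in resistant and at 13.9, 13.1 and 10.6 in parental Huh7 samples. The groups were far apart (log2 fold change 2.82, SE 0.13, adjusted p = 4.45e-06, and 2.29 with the trend on GC content taken off). The lines differed for UBE2L6 (interaction -3.25, SE 0.25, adjusted p = 2.62e-06), which was at 6.99 to 9.93 FPKM in resistant HepG2 samples. SHISA5 (1.51, SE 0.14), TRIM14 (1.21, SE 0.12), LGALS3BP (1.10, SE 0.15), PARP12 (1.10, SE 0.10) and BATF2 (1.09, SE 0.14) were the others called higher in Huh7. CXCL10, a chemokine that attracts T cells, was at 0.179, 0.397 and 0.179 FPKM in resistant and at 2.51, 2.78 and 2.47 in parental Huh7 samples (-1.52, SE 0.11, adjusted p = 2.69e-05). With the trend on GC content taken off, these 5 higher genes and CXCL10 no longer reached a log2 fold change of 1, among them CXCL10 at -0.70. DDX60L was also lower (-1.07, SE 0.12) and was likewise not called differentially expressed with that trend taken off. In HepG2, 2 of 22 were higher and 0 lower, with ZC3HAV1 at 0.77 (SE 0.16, adjusted p = 0.0135).

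Of the receptors and kinases, 1 of 7 tested was higher in resistant Huh7 cells and 4 were lower. JAK2 (-1.24, SE 0.12), JAK1 (-0.80, SE 0.11), the receptor chain IFNGR1 (-0.72, SE 0.12) and IFNAR1 (-0.47, SE 0.12) fell, and IFNGR2 (0.75, SE 0.12) rose. In HepG2, IFNLR1, the specific receptor chain for type III interferons, fell, with 0.444, 0.733 and 0.555 FPKM in resistant and 3.26, 3.95 and 4.15 in parental samples (-1.60, SE 0.15, adjusted p = 0.000573), a change that differed from Huh7 (interaction -1.78, SE 0.19, adjusted p = 2.02e-05). Of the sensors and adaptors, the kinase TBK1 was lower in resistant Huh7 cells (-1.26, SE 0.16), while its substrate IRF3 (1.01, SE 0.17), TRIM25 (0.98, SE 0.11), IKBKE (0.71, SE 0.13) and the mitochondrial adaptor MAVS (0.69, SE 0.13) were higher, and 0 of 5 passed in HepG2 (2 higher at an unadjusted p under 0.05). Taking off the trend on GC content left JAK2 at -0.54, TBK1 at -0.56 and IRF3 at 0.46. Among inhibitors of the pathway, PIAS1 (-1.09, SE 0.11), PTPN11 (-1.01, SE 0.12) and PTPN2 (-0.60, SE 0.10) were lower and IRF2 (0.50, SE 0.12) and IRF2BP1 (0.52, SE 0.19) higher in resistant Huh7 cells, and PIAS1 (-0.52) and PTPN11 (-0.57) stayed within 1 with that trend taken off. IRF2BP1 was also higher in HepG2 (1.08, SE 0.32, adjusted p = 0.0463), a call lost under 8 of 14 alternatives, and PTPN2 was lower there (-0.49, SE 0.15, adjusted p = 0.048). For the other Huh7 changes in this paragraph, values with the trend on GC content taken off are not given.

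**Figure D5:**
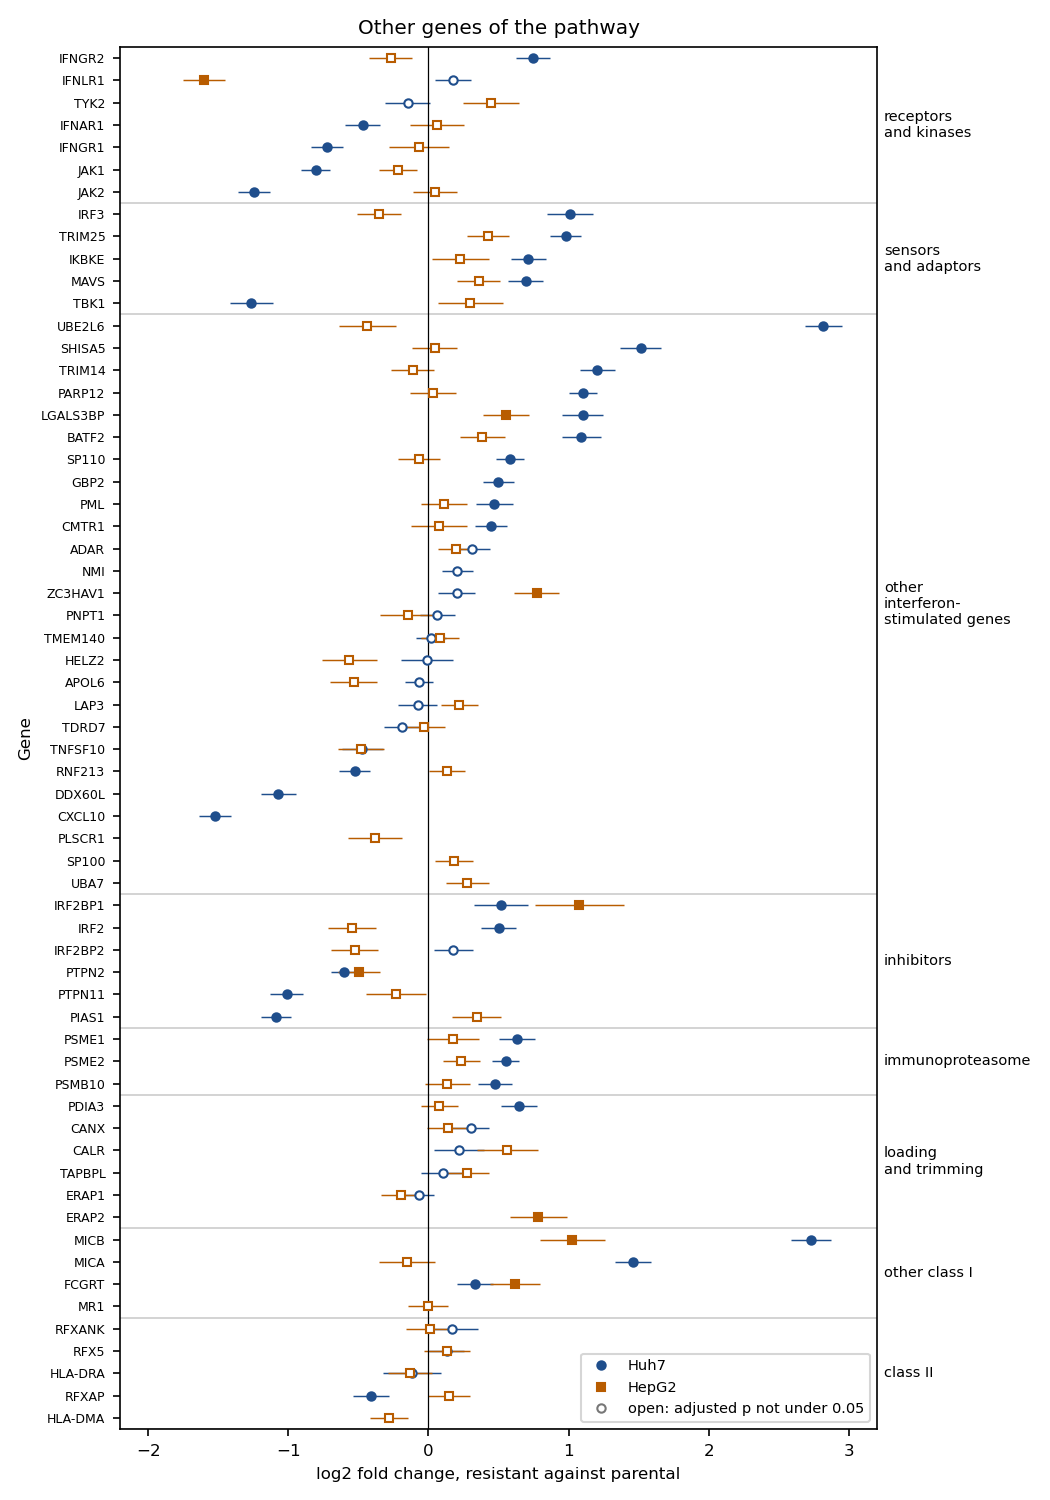
Log2 fold change of the other genes of the pathway in Huh7 (circles) and HepG2 (squares), resistant against parental, with bars of 1 SE and filled symbols for an adjusted p under 0.05. UBE2L6 (2.82) and MICB (2.73) lie farthest to the right in Huh7, and IFNLR1 (-1.60) farthest to the left in HepG2.

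In antigen presentation beyond the members, all 3 genes tested from the immunoproteasome list were higher in resistant Huh7 cells, PSME1 (0.63, SE 0.13), PSME2 (0.55, SE 0.10) and PSMB10 (0.47, SE 0.12). Their values with the trend on GC content taken off are not given. PSMB9, below the filter, went the other way, at 0.309 to 0.354 FPKM in resistant and 0.363 to 0.676 in parental Huh7 samples, and PSMB8 had no row. In HepG2, 0 of the 3 tested passed (0 at an unadjusted p under 0.05). Of the other class I genes, MICB and MICA encode stress ligands for the NKG2D receptor of natural killer cells. MICB was at 39.8, 34.0 and 33.2 FPKM in resistant and at 4.84, 5.28 and 3.58 in parental Huh7 samples (2.73, SE 0.14, adjusted p = 6.27e-06, and 2.49 with the trend on GC content taken off). MICA was at 2.94, 2.04 and 2.54 against 0.374, 0.224 and 0.208 FPKM (1.46, SE 0.13, adjusted p = 4.84e-05, and 0.98 with that trend taken off). Neither gene overlapped between the Huh7 groups. In HepG2, MICB was at 19.1, 21.1 and 21.9 against 11.9, 11.9 and 6.23 FPKM (1.02, SE 0.23, adjusted p = 0.0185), a call lost with no filter (0.0632) and without HepG2 resistant replicate 3 (0.0669), and the lines differed for both MICB (interaction -1.70, SE 0.29, adjusted p = 0.000449) and MICA (-1.62, SE 0.24, adjusted p = 0.000217). Of the genes for peptide trimming and folding, PDIA3 (0.65, SE 0.13) passed in Huh7 and ERAP2 (0.78, SE 0.20) in HepG2. The Huh7 value of PDIA3 with the trend on GC content taken off is not given.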

How the data were processed

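RNA from 12 samples was sequenced, 3 each of resistant and parental Huh7 and HepG2 cells. The labels name the RNeasy and NEBNext Ultra kits and the study's methods name TRIzol, so the extraction is not certain. GRCh38 and bcl2fastq are named in the submitters' processing notes, and the aligner and the counter are not given in the sources used here. The authors deposited 1 decimal value per gene and sample with no stated unit, treated here as FPKM, since the values do not separate it from RPKM. Multiplied by the exon length in GENCODE 29, 99.5% to 99.6% of the values of 6896 genes with a single exon came within 0.05 of whole reads, which gave the depth of each sample. All 44 members gave whole reads in all 12 samples, 41 with the GENCODE 29 length. Depth was 18972443 to 19286055 reads in resistant and 16158321 to 17944451 in parental Huh7 cells, 16935507 to 18281912 in resistant and 12290124 to 15728886 in parental HepG2 cells. Low values are therefore counts of few reads, and intervals were not drawn.

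Tables were read with Python 3.11.15 and pandas 2.3.3. limma 3.58.1 in R 4.3.3 was fitted to all Ensembl genes that passed the filter, on log2(FPKM + 1), with a trend of the variance on mean expression, two-sided tests and Benjamini-Hochberg adjustment over all genes tested. The resistant and parental samples of each line, the parental samples of both lines and the interaction of line and resistance in all 12 samples were compared. The fit was tested on simulated data. The members, gene lists and tests were chosen with earlier results of these data known. Named genes are the differentially expressed members in every sample, up to 2 more of each role group by mean FPKM, the other members by their range, and listed genes that were called, and further genes were given after their values were seen. Alternatives were a pseudocount of 0.1, no filter, median-ratio scaling, no trend, all 12 samples in 1 fit, the replicate block, limma-voom on the whole reads, a lowess trend on GC content (span 0.3) taken off and each sample left out, with the genes tested kept. NONCODE genes were not used. Promoter sequences are those of RefSeq.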

Additional observations from a re-analysis of the deposited data

Results flagged for a closer look

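For 11 members, the change with resistance differed between the lines by the interaction term in limma (adjusted p under 0.05, 12 samples), given as the HepG2 minus the Huh7 log2 fold change. OAS3 (-2.83) and OAS1 (-2.41) had the largest of these differences, and for both genes the HepG2 groups overlapped while the Huh7 groups did not. HLA-E (-1.72) rose in Huh7 and fell in HepG2, and SAMHD1 (1.15) did the reverse, with the limits given above for the calls within each line. IFIT5 (-1.43) fell in HepG2, and IFITM3 (-1.26), MX2 (-1.03) and IFI35 (-0.83) rose in Huh7. DDX58 (1.34) and EIF2AK2 (0.82) fell in Huh7. TAPBP (-0.70) passed in neither line alone. With the trend on GC content taken off, the difference was not past the threshold for EIF2AK2, IFI35 (adjusted p = 0.0899) and TAPBP (0.222), and it was past it for STAT2 (0.58, adjusted p = 0.00139), DTX3L (-0.68, 0.00287) and PARP14 (-0.55, 0.0129). limma-voom added STAT2 (adjusted p = 0.0414) and PARP9 (0.0402). The difference for IFI35 was also not past it without Huh7 resistant replicate 1 (0.054) or parental replicate 3 (0.0545), and that for TAPBP without Huh7 resistant replicate 1 (0.054) or HepG2 resistant replicate 1 (0.0502).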

How the results depend on the processing

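Over 14 alternatives for each comparison of 2 groups and 19 for the interaction, 53 of the 82 tests of single genes kept their direction and their side of the threshold throughout. The 82 were members past the adjusted p, other pathway genes called in a line, and further tests chosen by hand. Tests outside them changed too, such as ISG20 and PARP9 in Huh7 and DTX3L in HepG2, so this is not the share over every test reported. The adjusted p of the OAS1 and OAS3 changes in Huh7 reached at most 0.000218 and 0.000207, both with no filter, and that of MX1 0.000461. The trend on GC content had the widest effect in Huh7: taking it off left 0 members called lower in place of 1, and 2 other genes of the pathway called higher (UBE2L6 and MICB) and 0 lower in place of 9 and 6. It also turned EIF2AK2 (0.30, and -0.013 in the interaction), B2M (0.45), ISG15 (-0.13), TAPBP (-0.14) and ISG20 (-0.35) in Huh7, and IFITM3 (-0.031), B2M (-0.0006) and HLA-C (-0.19) in HepG2. In HepG2 it gave 6 members lower by the adjusted p alone in place of 2, and 0 other genes of the pathway called higher in place of 2. Over all genes it called 280 higher in HepG2 in place of 387. Median-ratio scaling turned IFITM3 (-0.043) and HLA-C (-0.021) in HepG2 and left 0 other pathway genes called higher there. limma-voom called 1427 genes higher and 2849 lower in Huh7 over all genes in place of 1079 and 1759. Median-ratio scaling moved the median of all genes between the parental lines from -0.19 to -0.05 and that of the interaction from 0.11 to -0.02, and the calls over all genes from 387 higher and 350 lower to 285 and 429 in HepG2, and from 1599 and 2482 to 1946 and 2090 between the parental lines. With no filter, 4 members were lower in HepG2 by the adjusted p alone, 8 lower in parental HepG2 than Huh7, 0 other pathway genes were called higher in HepG2, and 5 members had a higher interaction in place of 3. Over all genes, 278 of 24827 were then called higher in HepG2 in place of 387 of 11762. In the interaction, 5455 of 23290 were higher in place of 3437 of 10688. A pseudocount of 0.1 gave 1 member called higher in HepG2 in place of 0, 1 other pathway gene in place of 2, and 2 members called lower between the parental lines in place of 0. Over all genes it called 612 higher in HepG2 in place of 387, and 3181 lower between the parental lines in place of 2482. limma-voom on the whole reads gave 1, 2 and 5 for members called higher in HepG2, lower between the parental lines and higher in the interaction. Over all genes it gave 685, 3378 and 3768 for the same counts, in place of 387, 2482 and 3437. All 12 samples in 1 fit gave 5 members higher in HepG2 by the adjusted p alone in place of 3. For comparisons of 2 groups, counts over all genes by the adjusted p alone are not given for any alternative. Shifts in such counts are therefore not read as a result about the members. The looser motif AANNGAAA was found for 88.6% of the members with a promoter window and TTCNNNGAA for 28.6%. For these shifts the cause was not tested.

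With 1 sample left out, the members called in HepG2 numbered 0 to 1 higher and 1 to 2 lower, and by the adjusted p alone 1 to 5 higher and 1 to 3 lower. Other pathway genes called higher in HepG2 numbered 0 to 2. Members called in Huh7 stayed at 4 higher and 1 lower. Signs turned in HepG2 for OAS3 (-0.17 to 0.071), IFITM3 (-0.074 to 0.18), HLA-C (-0.074 to 0.12) and B2M (-0.024 to 0.25). The fewer reads of the parental HepG2 samples limit the precision of members near 1 FPKM.

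Same-numbered samples were not treated as pairs, since not every pair deviated together in any comparison, with correlations of -0.228 to 0.084 in Huh7, -0.011 to 0.437 in HepG2 and -0.187 to 0.183 between the parental lines. The fit with a replicate block gave 5 members higher in HepG2 by the adjusted p alone in place of 3 (USP18 and EIF2AK2 were added) and added PARP14 as lower there, and STAT2 in Huh7 had an adjusted p of 0.0553. It moved no other count of members called by more than 1.5 times.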

Other observations

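MHC class II genes were at low levels in both lines. HLA-DRA was at 0.822 to 2.18 FPKM over the 12 samples, CD74, the class II invariant chain, at 0.0746 to 0.842 and the class II transactivator CIITA at 0.112 to 0.565. RFXAP, a subunit of the factor that binds class I and class II promoters, was at 2.54 to 9.37 FPKM. RFXAP was lower in resistant Huh7 cells (log2 fold change -0.41, SE 0.13, limma, adjusted p = 0.0196), and 0 of the 5 class II genes tested in HepG2 passed (0 at an unadjusted p under 0.05). The Huh7 value of RFXAP with the trend on GC content taken off is not given.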
